A study of Mus musculus with 21 samples.

Results

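The genes described here are 48 genes of DNA replication and deoxynucleotide supply, taken by name from the 55487 genes in the deposited count files. Each name matched 1 gene of the annotation, and all 48 were expressed well enough to enter every test. They fall into 6 roles: 11 origin licensing genes, 8 genes of origin firing and the active helicase, 9 polymerase and primase genes, 11 genes of the clamp, its loader, single-strand binding and the lagging strand, 5 genes of deoxynucleotide (dNTP) supply, and 4 genes of fork protection and chromatin assembly. The RNA came from spleen T cells of 21 mouse libraries in 4 groups. The DKO group (n = 5) holds CD4 T cells of Tet2-/- Tet3 flx/flx CD4cre mice, which lack Tet2 in every cell and delete Tet3 where the Cd4 promoter drives Cre, that is, in T cells. Replicates 4 and 5 of DKO carry the label young, and no other age is given. The first transfer group (TX1, n = 4) holds such DKO cells recovered from recipient mice, and the second transfer group (TX2, n = 7) holds cells moved on after expansion in an earlier recipient. The WT group (n = 5) holds wild-type CD4 T cells. DKO and WT cells were sorted as CD4+ CD25- TCRb+ cells negative for the CD1d tetramer. Transferred cells were gated on CD45.2+ CD45.1- instead, and so transfer always came with another gate. DKO, TX1 and TX2 hold 1, 1 and 3 female libraries, and all WT libraries are male.

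Before S phase, the origin recognition complex, Cdc6 and Cdt1 load the Mcm2 to Mcm7 helicase onto origins. Kinases and firing factors then add Cdc45 and the GINS complex, which turns the loaded helicase into the active one. Polymerase alpha with primase starts each strand, polymerases delta and epsilon extend it on the Pcna clamp, and ribonucleotide reductase supplies the dNTPs. Resting T cells keep much of this programme low and induce it after antigen stimulation, with the E2F transcription factors as known activators of many of these genes.

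Promoter sequences are shown for the 4 members with the most E2F-type motifs in their listed promoter among those with 1 listed start, for Chaf1a, which had the largest log2 fold change of the members against DKO in both transfers, and for Rpa1, which passed the test in none of the 6 comparisons between groups. Windows run from 250 bases before to 50 bases after the start site, are 300 bases long and come from RefSeq on GRCm38.p6. Searched on both strands were the motif TTCCCGC, the motif TTGGCGC, the motif TTCGCGC and the motif TTGCCGC, and matches may overlap each other. Capitals mark the matches, and each sequence is written 5′ to 3′ on the strand of its gene. The windows are chr1:20820263-20820562 on the minus strand (Mcm3), chr8:75109259-75109558 on the plus strand (Mcm5), chr1:128359656-128359955 on the minus strand (Mcm6), chrX:93632106-93632405 on the minus strand (Pola1), chr17:56040166-56040465 on the plus strand (Chaf1a) and chr11:75348334-75348633 on the minus strand (Rpa1).
Mcm3: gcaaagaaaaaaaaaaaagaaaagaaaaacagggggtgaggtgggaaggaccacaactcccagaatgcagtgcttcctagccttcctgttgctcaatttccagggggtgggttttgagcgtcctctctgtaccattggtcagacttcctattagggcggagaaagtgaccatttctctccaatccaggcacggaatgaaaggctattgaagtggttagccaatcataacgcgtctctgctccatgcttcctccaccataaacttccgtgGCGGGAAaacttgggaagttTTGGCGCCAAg
Mcm5: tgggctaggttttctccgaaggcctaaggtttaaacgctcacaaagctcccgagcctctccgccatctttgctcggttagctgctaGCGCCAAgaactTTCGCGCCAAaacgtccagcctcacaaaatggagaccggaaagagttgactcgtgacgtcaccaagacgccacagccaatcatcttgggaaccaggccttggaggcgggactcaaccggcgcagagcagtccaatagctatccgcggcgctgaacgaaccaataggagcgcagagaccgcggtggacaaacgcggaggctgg
Mcm6: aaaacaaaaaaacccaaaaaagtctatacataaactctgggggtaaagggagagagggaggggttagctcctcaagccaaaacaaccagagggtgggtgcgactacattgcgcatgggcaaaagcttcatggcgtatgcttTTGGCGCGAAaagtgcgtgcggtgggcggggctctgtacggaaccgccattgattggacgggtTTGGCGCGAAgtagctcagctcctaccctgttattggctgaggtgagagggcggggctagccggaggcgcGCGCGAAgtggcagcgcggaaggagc
Pola1: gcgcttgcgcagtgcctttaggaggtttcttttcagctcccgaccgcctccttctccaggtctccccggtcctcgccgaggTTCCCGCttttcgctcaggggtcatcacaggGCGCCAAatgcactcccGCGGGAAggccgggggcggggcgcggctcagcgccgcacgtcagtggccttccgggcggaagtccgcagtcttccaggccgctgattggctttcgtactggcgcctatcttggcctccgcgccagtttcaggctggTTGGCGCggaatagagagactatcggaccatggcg
Chaf1a: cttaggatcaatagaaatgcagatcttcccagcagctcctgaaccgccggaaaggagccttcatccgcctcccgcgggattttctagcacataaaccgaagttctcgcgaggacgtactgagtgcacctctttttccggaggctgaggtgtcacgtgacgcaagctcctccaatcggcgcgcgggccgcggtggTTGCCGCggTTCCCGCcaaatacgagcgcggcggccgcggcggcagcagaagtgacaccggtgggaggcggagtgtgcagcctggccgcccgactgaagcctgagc
Rpa1: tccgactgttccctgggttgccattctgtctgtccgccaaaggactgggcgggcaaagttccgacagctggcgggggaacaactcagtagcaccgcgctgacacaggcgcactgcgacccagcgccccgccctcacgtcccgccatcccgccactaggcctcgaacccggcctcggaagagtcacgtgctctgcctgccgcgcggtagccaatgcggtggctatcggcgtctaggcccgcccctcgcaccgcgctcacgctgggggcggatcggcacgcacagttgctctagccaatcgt

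The Mcm6 window held 5 matches, the Pola1 window 4, the Mcm3 and Mcm5 windows 3 each, the Chaf1a window 2 and the Rpa1 window 0. Pole2, like Rpa1, passed the test in no comparison between groups, and its window, not shown, held 1 match. In Mcm3 all matches lay after the start site, at positions 19, 39 and 42. In Mcm5 they lay 149 to 164 bases before it, so matches lay on either side of the start site. The RefSeq table held 44 promoters of 39 members. At least 1 E2F-type match was found in 26 of them (59.1%), compared with 9.57% of all 32851 promoters of the same length and 16.5% of the 12504 promoters of genes tested in DKO against WT. At least 2 matches were found in 11 member promoters (25%), compared with 1.18% of all promoters and 2.26% of promoters of tested genes. The letters CCAAT were found in 54.5% of member promoters, 37.4% of all promoters and 37.8% of promoters of tested genes. The letters TTTGAA were found in 13.6%, 17.9% and 12.3%, in the same order. The windows of Mcm10, Mcm2, Pcna, Tk1, Tyms and Ticrr held no E2F-type match, and several of these genes are among the most changed below. Of the 24 members with a match, 20 were higher in DKO than in WT, as were 12 of the 15 without one. Their median log2 fold changes were 1.275 with a match and 0.837 without one, a difference that was not tested. These matches describe letters only, and binding was not measured.

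Depth was even, with 26918548 to 30730877 reads assigned to genes per library. Tet3 averaged 94.2 ± 7.70 CPM (reads scaled to a common library size with TMM factors; SD, n = 5) in DKO and 198 ± 18.6 CPM in WT (n = 5), while whole-gene counts of Tet2 do not check its deletion. The T cell genes Cd3e and Cd247 were present in every library. Cd4 stood at 1025, 0.350, 27.1 and 0.131 CPM in TX1 replicates 1 to 4 and at 0.635 to 2.25 CPM in TX2, against 1064 to 1772 CPM in DKO and 1457 to 1554 CPM in WT. The transferred cells are labelled as former CD4 cells. The most abundant sequence of the T cell receptor alpha chain (TRA) took 75.4 to 88.1% of TRA reads in TX1 and 83.2 to 95.7% in TX2, so each transferred library is mostly 1 clone. It took 3.86 to 12.5% in DKO apart from replicate 2 (77.9%). TX2 replicates 1 to 4 share 1 receptor (first clone set) and replicates 5 to 7 another (second clone set), which is also that of TX1 replicate 3. Test results over TX2 therefore measure the spread between libraries of 2 clones. WT replicates 2 and 5 share their top receptor sequence and 5 of their top 10, and results against WT are also given without each.

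**Figure D1:**
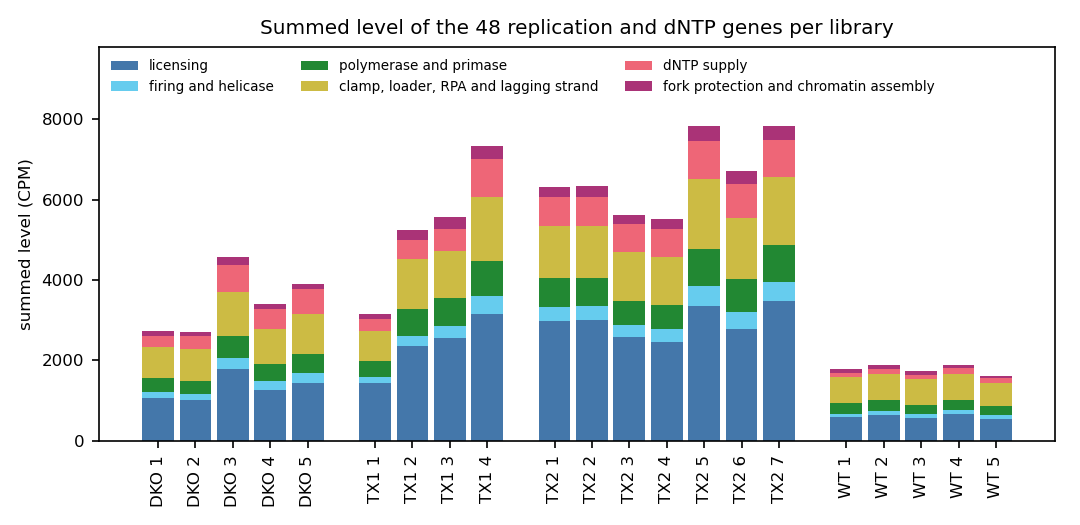
Summed level of the 48 members in each library (CPM, vertical axis), stacked by role, for DKO, TX1, TX2 and WT libraries. DKO libraries sit between 2697 and 4578 CPM, TX1 libraries spread from 3142 to 7334, TX2 libraries lie between 5507 and 7842, and WT libraries between 1617 and 1890.

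Loss of Tet2 and Tet3 was accompanied by higher levels of most of the 48 members. In DKO, 40 of 48 members rose and 0 fell, where 22.7% of all 13700 tested genes rose and 20.7% fell (edgeR's quasi-likelihood test, Benjamini-Hochberg adjusted p below 0.05). The median member was 2.31-fold higher in DKO, a log2 fold change of 1.21, beside a median of -0.01 over all tested genes. For 35 members every DKO library lay above every WT library, as was the case for 17.8% of all genes. Without WT replicate 2 or without WT replicate 5 the count was 39 each time, where 37.4% and 46.1% of genes were called in either direction. From bulk RNA, more cycling cells and more transcript per cell cannot be told apart.

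Licensing genes rose in 10 of 11 cases. Cdc6, the loader of the helicase, was at 15.3, 14.1, 36.5, 21.8 and 27.5 CPM in DKO, against 2.45, 4.37, 3.60, 6.03 and 4.27 CPM in WT (log2 fold change 2.49 ± 0.31 (SE), adjusted p = 0.000152). The DKO libraries all lay above the WT libraries, with replicate 3 the highest. Orc1, the largest subunit of the origin recognition complex, averaged 5.12 ± 1.79 CPM in DKO and 1.19 ± 0.41 in WT, a log2 fold change of 2.13 ± 0.34. The 6 helicase subunits rose by unequal amounts: Mcm5 (log2 fold change 1.72 ± 0.21) and Mcm6 (1.51 ± 0.13) most, and Mcm2 and Mcm4 least. Mcm2 was at 168, 141, 258, 187 and 204 CPM in DKO, against 111, 117, 110.4, 115 and 90.3 CPM in WT (0.84 ± 0.15, adjusted p = 0.00114). Gmnn, the gene of geminin, which blocks relicensing, rose by 1.89 ± 0.32, while its target Cdt1 did not pass the test (62.2 ± 12.0 CPM in DKO, against 50.8 ± 3.95 CPM in WT, 0.31 ± 0.13, adjusted p = 0.0714).

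Firing and helicase genes rose in 6 of 8 cases, with a median log2 fold change of 2.35. Mcm10, which helps to activate the helicase, was at 12.4, 14.5, 42.9, 25.3 and 27.9 CPM in DKO, against 2.19, 3.34, 2.51, 4.10 and 2.34 CPM in WT. The gene lies on the minus strand at chr2:4989714-5012791 (GRCm38). This was the largest log2 fold change among the members, 3.10 ± 0.35 (adjusted p = 9.44e-05). Ticrr, which links cyclin-dependent kinase to origin firing, was at 18.1, 19.9, 43.3, 30.73 and 32.7 CPM in DKO, against 3.83, 5.00, 3.64, 6.03 and 5.45 CPM in WT (2.61 ± 0.26, adjusted p = 4.78e-05). Cdc45 rose by 2.35 ± 0.29. The GINS complex split: Gins1 (2.36 ± 0.28) and Gins2 (2.58 ± 0.25) rose, whereas Gins3 (0.44 ± 0.18, adjusted p = 0.0671) and Gins4 (0.28 ± 0.11, adjusted p = 0.0714) did not pass the test, although the 4 proteins form 1 complex. For Gins2, 67.3% of the exon length overlaps Gse1, and reads that fall on both genes are not counted for either, so its level is understated in all groups.

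Polymerase and primase genes rose in 7 of 9 cases with a median log2 fold change of 0.77. Pole, the catalytic subunit of polymerase epsilon, averaged 57.4 ± 19.5 CPM in DKO, against 15.6 ± 1.66 CPM in WT (1.90 ± 0.21, adjusted p = 7.80e-05), whereas its partner Pole2 averaged 14.0 ± 3.52 CPM in DKO, against 14.3 ± 1.67 CPM in WT (-0.0042 ± 0.17, adjusted p = 0.986). Pola1, the catalytic subunit of polymerase alpha, rose by 1.34 ± 0.24, and the primase genes Prim1 (1.13 ± 0.20) and Prim2 (1.02 ± 0.22) rose with it. For polymerase delta, Pold3 (0.77 ± 0.10) and Pold1 (0.53 ± 0.18, adjusted p = 0.0359) rose and Pold2 did not pass the test (0.07 ± 0.11, adjusted p = 0.629). The call of Pold1 held in 9 of 19 alternatives and was lost without DKO replicate 3, 4 or 5 or WT replicate 3 or 4.

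Among the clamp and lagging strand genes 9 of 11 rose. Pcna, the sliding clamp, was at 166, 201, 293, 226 and 265 CPM in DKO, against 144, 134, 137, 150.1 and 143 CPM in WT (0.72 ± 0.14, adjusted p = 0.00190). The groups did not overlap, but the lowest DKO library stood close to the highest WT library. Pcna and Tyms have named pseudogenes that may share reads with them, so their counts are less certain. Lig1, the ligase that joins Okazaki fragments, rose by 2.14 ± 0.25. Of the clamp loader, Rfc2 to Rfc5 rose by 0.66 to 1.31 and Rfc1, the large subunit, did not pass the test (0.28 ± 0.14, adjusted p = 0.121). Rpa1, the large subunit of the single-strand binding complex, was at 299, 236, 289, 276 and 314 CPM in DKO, against 288, 285.5, 286.5, 269 and 233 CPM in WT (0.08 ± 0.10, adjusted p = 0.551). Its level in WT was 48.8 CPM per kilobase of exon, compared with 59.0 for Pcna, 22.8 for Mcm6 and 0.377 for Mcm10, which all rose. Fen1 rose too (1.45 ± 0.41, adjusted p = 0.0150), but 84.2% of its exon length overlaps other genes and its level was 0.189 to 3.39 CPM in these groups.

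All 5 dNTP supply genes rose, with a median log2 fold change of 2.35. Rrm2 (chr12:24708241-24714146, plus strand), the subunit of ribonucleotide reductase whose level follows S phase, was at 64.2, 77.2, 191, 149.5 and 185 CPM in DKO, against 14.3, 22.4, 13.2, 29.3 and 22.8 CPM in WT (2.73 ± 0.35, adjusted p = 0.000186). Tk1, the thymidine salvage kinase, was at 22.2, 23.2, 56.9, 45.1 and 55.3 CPM in DKO, against 4.99, 7.86, 5.18, 9.63 and 6.96 CPM in WT (2.57 ± 0.32, adjusted p = 0.000145). In both genes DKO replicates 1 and 2 were the lowest of their group and still above all WT libraries. Tyms, thymidylate synthase, rose by 2.35 ± 0.32, the large reductase subunit Rrm1 by 1.74 ± 0.25 and Dut, which removes dUTP, by 1.51 ± 0.17. Of the last role, Chaf1a (chr17:56040439-56072289, plus strand), the large subunit of chromatin assembly factor 1, was at 16.9, 21.6, 45.9, 21.8 and 27.9 CPM in DKO, against 3.41, 4.92, 4.39, 5.28 and 2.72 CPM in WT (2.71 ± 0.29, adjusted p = 7.06e-05). Its partner Chaf1b (0.60 ± 0.21) and the fork protection gene Tipin (0.79 ± 0.19) rose less. The call of Chaf1b held in 9 of 19 alternatives and was lost without DKO replicate 3, 4 or 5 or WT replicate 2, 3, 4 or 5. Timeless, which pairs with Tipin, did not pass the test (40.9 ± 13.4 CPM in DKO, against 44.3 ± 12.6 CPM in WT, -0.09 ± 0.25, adjusted p = 0.784). Of the exon length of Chaf1a, 52.5% overlaps Ubxn6, so its level is understated throughout.

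**Figure D2:**
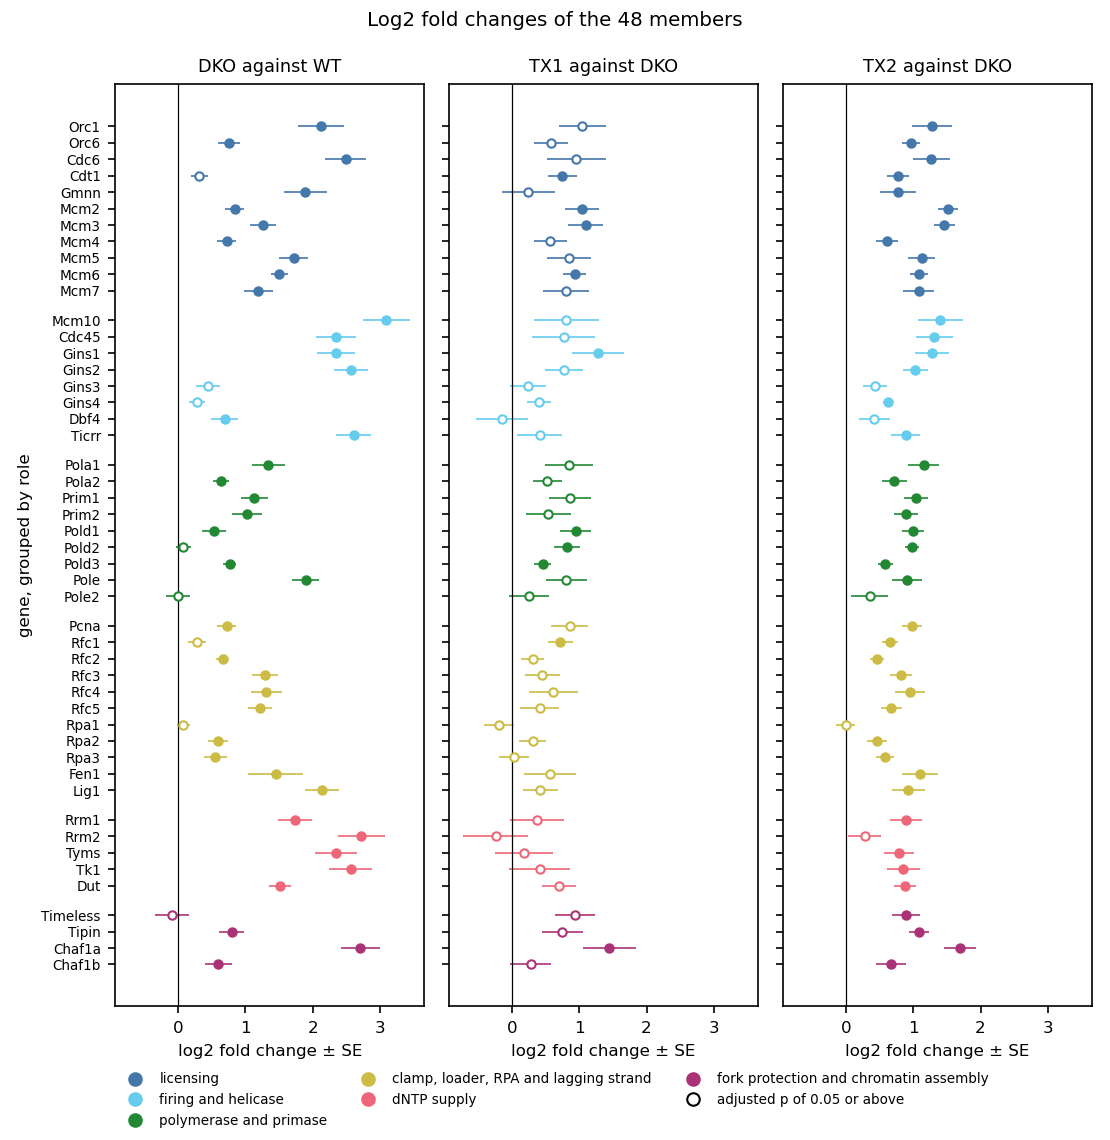
Log2 fold change with its standard error (horizontal axis) of each member (rows, grouped and coloured by role) in DKO against WT, TX1 against DKO and TX2 against DKO. Filled points have an adjusted p below 0.05; 40, 10 and 43 of the 48 members are filled, all to the right of 0.

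The DKO libraries differed among themselves along the whole set. Replicate 3 was the highest DKO library for 46 of 48 members, and replicate 1 or 2 the lowest for 47. Replicate 2, the mostly clonal one, exceeded every WT library for 36 members (33.4% of all tested genes), and replicate 3 did so for 48 (31.4%). Among the libraries numbered up to 3 alone 31 members were higher in DKO, where 28% of genes were called in either direction, and among those numbered 4 and over 36 (22.4%). Without the libraries labelled young 36 members were called (30.3%).

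Genes outside the 48 were counted from lists chosen by function. Of 30 other replication genes, 16 rose and 1 fell in DKO, the largest rises being in the checkpoint mediator Clspn (2.84 ± 0.37) and the nuclease Dna2 (2.38 ± 0.33). Of 30 other nucleotide synthesis genes 9 rose and 3 fell. Dctpp1, a dCTP pyrophosphatase, rose by 1.03 ± 0.24. Rrm2b, the reductase subunit used outside S phase, averaged 25.6 ± 2.83 CPM in DKO, against 48.03 ± 15.6 CPM in WT (-0.89 ± 0.19, adjusted p = 0.00322), and Tk2, the mitochondrial thymidine kinase, also fell (-0.82 ± 0.11, adjusted p = 0.000202). Of 13 genes of the E2F and pocket protein family 8 rose, led by E2f8 (2.698 ± 0.35) and E2f7 (2.65 ± 0.31), with the activator E2f1 at 21.7 ± 5.43 CPM in DKO, against 5.01 ± 1.21 CPM in WT (2.13 ± 0.22). The S-phase cyclins Ccna2 (2.83 ± 0.48) and Ccne2 (1.87 ± 0.36) rose, and so did all 20 mitosis genes, with Ccnb2 (3.10 ± 0.33) and Aurkb (3.07 ± 0.51) first.

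**Figure D3:**
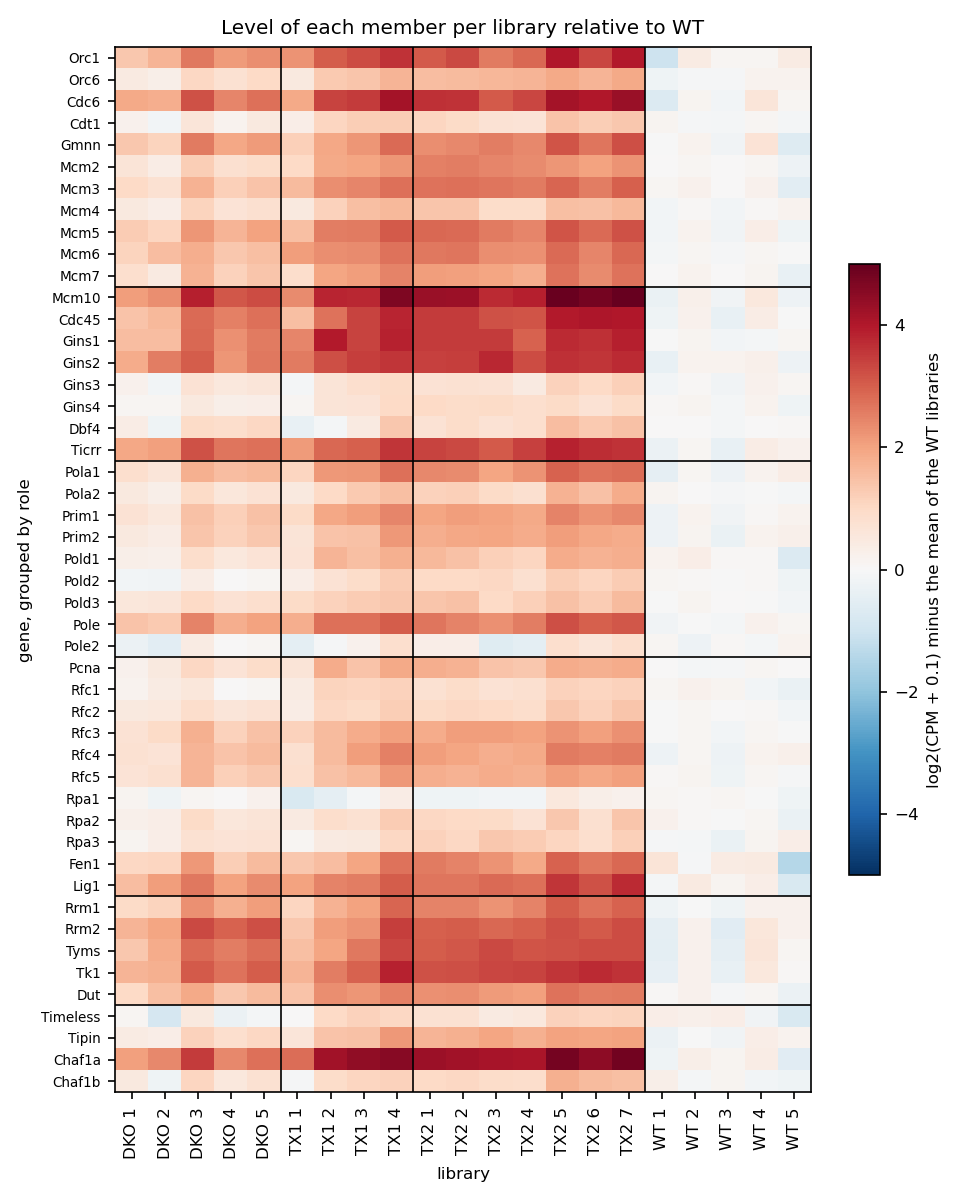
Level of each member (rows, by role) in each library (columns) as log2(CPM + 0.1) minus the mean of the WT libraries. Red is above WT; TX1 replicate 1 resembles the DKO columns, TX1 replicate 4 the TX2 columns, and the rows of Rpa1 and Pole2 stay near white.

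The comparison of TX1 with DKO addresses what a first transfer adds, and here the libraries of TX1 did not behave as 1 group. Of the members, 10 rose and 0 fell in TX1, where 11.7% of 13954 genes rose and 7.97% fell, with 4 of 11 licensing genes, 3 of 9 polymerase genes and 0 of 5 dNTP genes among them. The median log2 fold change was 0.59, beside 0.02 over all genes. Only for Mcm6 did all TX1 libraries lie above all DKO libraries, where 10.1% of genes did. TX1 and TX2 are set against the same DKO libraries in what follows.

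TX1 replicate 1 was the lowest TX1 library for 48 of 48 members and lay within the DKO range for 41, as it did for 52.4% of all tested genes. TX1 replicate 4 lay above every DKO library for 48 members (33.2% of all tested genes), replicate 3 for 33 (32%), replicate 2 for 28 (32%) and replicate 1 for 1 (25.7%). Replicate 1 is also the TX1 library that kept Cd4 and had the highest summed level of the T cell markers (3507 CPM, against 1548 to 1669 in the other TX1 libraries) and of the B cell markers (63.6 CPM, against 0.245 to 0.709). The part of these differences in the counts was not tested. Without TX1 replicate 1 the count of members called was 27, and 37.7% of all genes were called in either direction. The count fell to 2 without TX1 replicate 2, to 1 without replicate 3 and to 2 without replicate 4. It was 2 without DKO replicate 1, 6 without replicate 2, 1 without replicate 4, 4 without replicate 5 and 10 without replicate 3, and 9.26 to 18.5% of all genes were called in these fits. It was 0 without the DKO libraries labelled young, a fit that called 3 of 13920 genes, and 0 among libraries numbered up to 3, which called none.

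The members called were Cdt1, Mcm2, Mcm3, Mcm6, Gins1, Pold1, Pold2, Pold3, Rfc1 and Chaf1a. Mcm3 was at 201, 339, 372 and 459.7 CPM in TX1, against 137, 116, 225, 156 and 182 CPM in DKO (1.09 ± 0.27, adjusted p = 0.0234). Mcm2 was at 218, 408, 429 and 499.6 CPM in TX1, against the DKO values given above (1.04 ± 0.26, adjusted p = 0.0244). In both genes TX1 replicate 1 lay inside the DKO range and the other TX1 libraries above it. Gins1 was at 8.35, 24.6, 16.1 and 22.6 CPM in TX1, against 4.52, 4.496, 11.3, 7.61 and 9.53 CPM in DKO (1.28 ± 0.39, adjusted p = 0.0498). This call held in 3 of 17 alternatives. Chromosome 2, which carries Gins1 and Pcna, had a median level 0.40 above the WT mean (log2) in TX1 replicate 2. It was 0.09, 0.02 and -0.05 in TX1 replicates 1, 3 and 4. The part of that shift in Gins1 was not tested. Chaf1a was at 28.7, 75.9, 88.2 and 95.8 CPM in TX1 (1.45 ± 0.39, adjusted p = 0.0333). Cdt1, Pold2 and Rfc1, which did not pass the test in DKO against WT, were among the called genes (0.74 ± 0.22, 0.81 ± 0.19 and 0.72 ± 0.18).

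Rrm2, Tk1, Cdc6 and Pcna, which rose in DKO, did not pass the test in TX1. Rrm2 was at 49.4, 83.2, 93.8 and 217 CPM in TX1, lower on average than in DKO and overlapping it (-0.25 ± 0.48, adjusted p = 0.758). Tk1 was at 22.1, 40.3, 52.5 and 97.1 CPM in TX1 (0.41 ± 0.46, adjusted p = 0.566). Cdc6 was at 15.2, 42.0, 46.0 and 72.6 CPM in TX1 (0.95 ± 0.44, adjusted p = 0.157) and Pcna at 222, 517, 378 and 527 CPM (0.86 ± 0.27, adjusted p = 0.0561). In each of these 4 genes TX1 replicate 1 stood lowest and replicate 4 highest. A p that misses the threshold does not show equal levels, and the standard error of Rrm2 leaves room for changes in either direction.

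Other lists moved differently in TX1. Of the 30 other nucleotide synthesis genes 13 rose and 0 fell, including Dctd (24.1 ± 8.11 CPM in TX1 and 5.90 ± 2.22 in DKO, 2.04 ± 0.35), Shmt1 (1.75 ± 0.43), Cad, which starts pyrimidine synthesis (342 ± 89.5 CPM in TX1 and 122 ± 19.9 in DKO, 1.51 ± 0.21), the purine enzyme Gart (1.44 ± 0.23) and Umps, which completes UMP synthesis (1.22 ± 0.23). Of 30 other replication genes 2 rose and 1 fell, among them the helicase Recql4 (1.48 ± 0.45) and, downwards, the polymerase delta subunit Pold4 (-1.08 ± 0.31). E2f1 (1.30 ± 0.31), E2f3 (1.25 ± 0.24) and the phosphatase Cdc25a (0.91 ± 0.18) rose. No mitosis gene of 20 passed the test (median log2 fold change -0.12).

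Set against the mitosis genes library by library, the members and the mitosis genes did not keep the same proportion in all groups. Their summed levels were 3142, 5253, 5560 and 7334 CPM in TX1 replicates 1 to 4 and 2721, 2697, 4578, 3409 and 3913 CPM in DKO. The summed levels of the 20 mitosis genes were 611, 994.6, 1240 and 3294 CPM in TX1 and 784.5, 857, 2575, 1789 and 2336 CPM in DKO. The ratio of the sums was 5.14, 5.28, 4.48 and 2.23 in TX1, 3.47, 3.15, 1.78, 1.91 and 1.68 in DKO, 2.15 to 2.80 in TX2 and 5.19 to 11.0 in WT. The ratio of TX1 replicate 4 lay within the TX2 range, and its mitosis sum lay above the TX2 range of 2154 to 3211 CPM. This ratio is a description without a test.

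**Figure D4:**
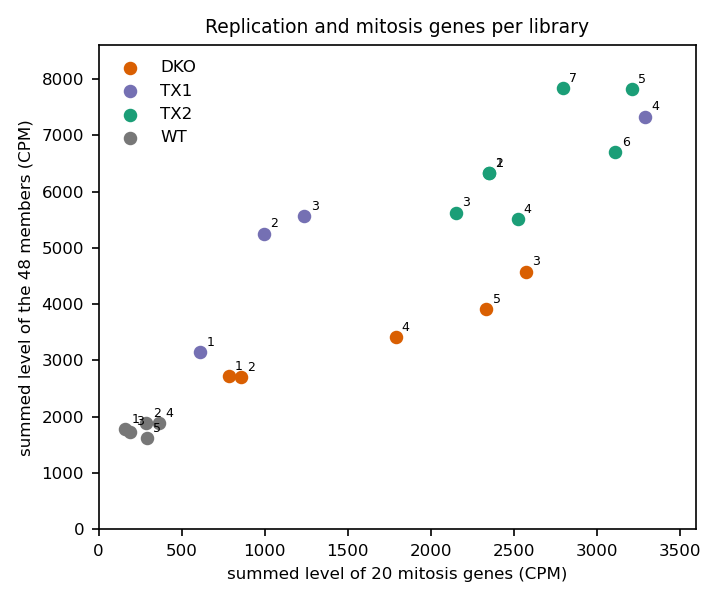
Summed level of the 48 members (vertical axis, CPM) against the summed level of 20 mitosis genes (horizontal axis, CPM), 1 point per library with its replicate number. TX1 replicates 1 to 3 lie at 611 to 1240 CPM of mitosis genes, left of the TX2 libraries at 2154 to 3211.

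After the second transfer the members were high throughout. In TX2, 43 of 48 rose against DKO and 0 fell, where 25.6% of 14034 genes rose and 26.1% fell, and for 29 members no TX2 library overlapped the DKO libraries (16.4% of genes). The median log2 fold change was 0.89, beside -0.01 over all genes. In the fit of single libraries all 11 licensing genes and all 4 genes of the last role rose, 8 of 9 polymerase genes, 10 of 11 clamp and lagging strand genes, 6 of 8 firing genes and 4 of 5 dNTP genes. The calls of Gmnn (0.77 ± 0.26) and Chaf1b (0.67 ± 0.23) were the least stable and held in 13 and 12 of 24 alternatives. That of Gmnn was lost without DKO replicate 1, 2 or 4 or TX2 replicate 5 or 7, and that of Chaf1b without DKO replicate 1, 2 or 4 or TX2 replicate 5 or 6. Among libraries numbered up to 3 the count was 22, where 44.3% of genes were called in either direction, and among those numbered 4 and over it was 35 (22.6%). With the TX2 libraries summed per clone set, which leaves 2 TX2 samples, it was 32 (30.2%).

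Chaf1a changed most. It was at 70.4 (lowest), 79.5 (median) and 116 CPM (highest) over the 7 TX2 libraries, against 16.9, 21.6, 45.9, 21.8 and 27.9 CPM in DKO (1.70 ± 0.24, adjusted p = 0.000162). Chromosome 17, which carries Chaf1a, had a median level 0.29 to 0.37 above the WT mean on the log2 scale in TX2, 0.11, 0.44, 0.41 and 0.42 above it in TX1 and -0.10 to -0.04 in DKO. The part of that chromosome-wide shift in the level of Chaf1a was not tested.

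Mcm2 ranged from 442 over a median of 563 to 647 CPM in TX2 (1.51 ± 0.15, adjusted p = 1.32e-05), and Mcm3 from 401 over 443 to 534 CPM (1.46 ± 0.15, adjusted p = 1.72e-05). Both lay above all DKO libraries, whose highest values were 258 and 225 CPM. Mcm10 ranged from 38.8 over 57.8 to 94.2 CPM in TX2 (1.40 ± 0.34, adjusted p = 0.00436) and Cdc6 from 34.3 over 50.9 to 80.2 CPM (1.27 ± 0.28, adjusted p = 0.00254). The lowest TX2 libraries for these 2 genes lay inside the DKO range, below DKO replicate 3. Pcna ranged from 363 over 487 to 516 CPM (0.97 ± 0.15, adjusted p = 0.000217) and Tk1 from 61.0 over 69.8 to 90.3 CPM (0.85 ± 0.24, adjusted p = 0.0117), both without overlap.

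Rrm2 alone of the 5 dNTP genes did not pass the test in TX2 against DKO in the fit of single libraries. It ranged from 143 over 159 to 186 CPM in TX2, inside the DKO range of 64.2 to 191 CPM (0.27 ± 0.25, adjusted p = 0.377). Its partner Rrm1 rose (337 ± 65.9 CPM in TX2 and 179 ± 69.1 in DKO, 0.89 ± 0.23, adjusted p = 0.00754). With the TX2 libraries summed per clone set, 3 more dNTP genes did not pass edgeR's test. They were Rrm1 (0.982, adjusted p = 0.0805), Tk1 (0.935, adjusted p = 0.114) and Tyms (0.850, adjusted p = 0.125). Tk1 also did not pass with the first clone set alone (0.685, adjusted p = 0.0600). In the fit of single libraries, the other members that did not pass the test were Gins3, Dbf4, the activator of the kinase Cdc7, Pole2 and Rpa1. Genes that had not passed in DKO against WT rose here: Pold2 (0.98 ± 0.11), Cdt1 (0.77 ± 0.16), Rfc1 (0.65 ± 0.12), Gins4 (0.62 ± 0.08) and Timeless (77.2 ± 15.3 CPM in TX2 and 40.9 ± 13.4 in DKO, 0.89 ± 0.21, adjusted p = 0.00376). Of the 30 other nucleotide synthesis genes 21 rose and 4 fell in TX2 against DKO, and of the 20 mitosis genes 6 rose.

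The transfers were also set against WT. In TX1, 44 of 48 members rose and 0 fell (26.1% and 22.1% of 13748 genes), 40 without overlap (20.7% of genes), and in TX2, 46 rose and 0 fell (33.4% and 32.8% of 14001 genes), all 46 without overlap (24.3%). Median log2 fold changes were 1.91 in TX1 and 2.21 in TX2. Mcm10 was at 42.4 ± 24.4 CPM in TX1 (n = 4) and 65.8 ± 22.5 CPM in TX2 (n = 7), against 2.90 ± 0.81 CPM in WT (3.92 ± 0.44 and 4.496 ± 0.30 on the log2 scale). Chaf1a was at 72.2 ± 30.1 CPM in TX1 and 88.1 ± 19.2 CPM in TX2, against 4.14 ± 1.06 CPM in WT (4.16 ± 0.37 and 4.40 ± 0.23). The corresponding log2 fold changes against WT in TX1 and TX2 were 3.46 ± 0.43 and 3.76 ± 0.28 for Cdc6, 2.99 ± 0.41 and 3.42 ± 0.19 for Tk1, 2.50 ± 0.43 and 3.00 ± 0.20 for Rrm2, 1.88 ± 0.23 and 2.34 ± 0.12 for Mcm2, and 1.58 ± 0.23 and 1.69 ± 0.11 for Pcna. Gins1 (3.64 ± 0.32 in TX1) and Cdc45 (3.66 ± 0.23 in TX2) were also among the largest. Pole2 and Rpa1 did not pass the test in either transfer. Without WT replicate 2 or WT replicate 5 the counts were 43 and 45 for TX1 and 46 and 46 for TX2. Of all genes, 41.4% and 48.2% were called in either direction for TX1 and 61.7% and 65.3% for TX2.

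Between the transfers no member was called. In TX2 against TX1, 0 of 48 members and 6 of 13907 genes (0.0431%) had an adjusted p below 0.05 by edgeR's quasi-likelihood test, 6 members and 2992 genes had an unadjusted p below 0.05, and DESeq2 called 1 member and 1435 genes (8.9% of those it tested). The log2 fold changes were 0.50 ± 0.19 for Mcm2 (adjusted p = 0.177), 0.36 ± 0.36 for Cdc6 (0.589), 0.15 ± 0.21 for Pcna (0.700), 0.56 ± 0.32 for Rrm2 (0.325) and 0.48 ± 0.31 for Tk1 (0.390), with a median of 0.30 over the members and -0.01 over all genes. TX1 replicate 4 set the upper end of TX1: it lay above every TX2 library for 10 members (12.2% of genes) and within the TX2 range for 38 (75.8%), and without it 8 members were called (9.07% of genes in either direction).

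One receptor links the transfers. Against TX1 replicate 3, the 3 TX2 libraries with the same receptor were all higher for 44 of 48 members and all lower for 0, where 32.5% of genes were all higher and 38.6% all lower. The ratio of the TX2 mean to that library had a median of 1.36 over the members. Mcm10 averaged 88.2 ± 7.49 CPM (n = 3) in those TX2 libraries and was at 39.8 CPM in the TX1 library (ratio 2.21), Rrm2 177.7 ± 12.4 and 93.8 CPM (1.90), and Lig1 286 ± 54.0 and 149.6 CPM (1.91). Timeless was at 92.5 ± 3.13 and 94.0 CPM (0.984). With 1 library on the TX1 side there is no test. Markers of other cells differed as well. B cell markers summed to 53.8 to 152 CPM in those TX2 libraries and 0.709 CPM in TX1 replicate 3. Neutrophil markers summed to 43.3 to 108 and 0 CPM, and erythroid markers to 20.04 to 632 and 1.32 CPM. The part of such cells in these ratios was not tested.

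The clone sets of TX2 differed in these genes. In the second clone set (n = 3), 28 members were higher and 1 lower than in the first (n = 4), where 23.3% of 13920 genes were higher and 21.3% lower. For 34 members all libraries of the second set were higher, as for 26.1% of genes. The median log2 fold change was 0.41, beside 0.02 over all genes. Libraries of a set share a clone, and the sets also differ in sex, so the test compares these libraries only.

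Mcm10 was at 90.6, 79.8 and 94.2 CPM in the second set, against 57.8, 56.2, 38.8 and 42.9 CPM in the first (0.86 ± 0.15, adjusted p = 0.00322). Lig1 was at 301, 226 and 331 CPM in the second set, against 161, 160.0, 179 and 169.5 CPM in the first (0.78 ± 0.13, adjusted p = 0.00232). Orc1 (0.82 ± 0.22, adjusted p = 0.0165), Pole2 (0.82 ± 0.26, adjusted p = 0.0325), Cdc6 (0.73 ± 0.15, adjusted p = 0.00548) and Tk1 (0.37 ± 0.08, adjusted p = 0.00923) were higher too. Pole2 was at 25.2, 21.7 and 25.1 CPM in the second set, against 17.7, 17.9, 9.25 and 9.96 CPM in the first, without overlap. The call of Pole2 was lost without TX2 replicate 3, 4, 5 or 7 and that of Orc1 without replicate 5 or 7. Pcna (0.25 ± 0.12, adjusted p = 0.125) and Rrm2 (0.22 ± 0.08, adjusted p = 0.0515) did not pass the test.

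Rpa1 averaged above the DKO mean of 283 CPM in the second clone set and below it in the first. It was at 390.1, 335 and 317 CPM in the second set, against 235, 231, 245 and 248 CPM in the first (0.54 ± 0.09, adjusted p = 0.00221). Set against DKO separately, it was higher in the second set (0.33 ± 0.11, adjusted p = 0.0357) and lower in the first (-0.26 ± 0.09, adjusted p = 0.0246), with no difference detected over all TX2 libraries (-0.01 ± 0.14, adjusted p = 0.970). The second set lay above the DKO range of 236 to 314 CPM, whereas the first set overlapped its lower end. Libraries of a set share a clone, so these tests compare these libraries only. By clone set, 47 members were higher and 0 lower than in DKO in the second (56.4% of genes called in either direction) and 39 higher and 1 lower in the first (59.1%).

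Mcm2 went the other way. It was at 503, 442 and 510.3 CPM in the second set, against 629, 647, 582 and 563 CPM in the first (-0.31 ± 0.09, adjusted p = 0.0207), without overlap. The call was lost without TX2 replicate 1 (-0.29) or 2 (-0.28). Mcm2 and Rpa3, a small subunit of the single-strand binding complex, are the members on chromosome 6, whose median level against the WT mean was -0.32 to -0.28 in the second set and 0.22 to 0.38 in the first, a difference of -0.60. Rpa3 was at 24.8, 21.3 and 27.0 CPM in the second set and 26.1, 24.5, 30.3 and 28.8 CPM in the first (-0.16 ± 0.12, adjusted p = 0.318). All other members but Gins4 (-0.03) had positive log2 fold changes. Of the other helicase subunits, which lie on other chromosomes, Mcm7 was called higher and Mcm3, Mcm4, Mcm5 and Mcm6 were not called. The part of the chromosome-wide difference in Mcm2 was not tested.

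**Figure D5:**
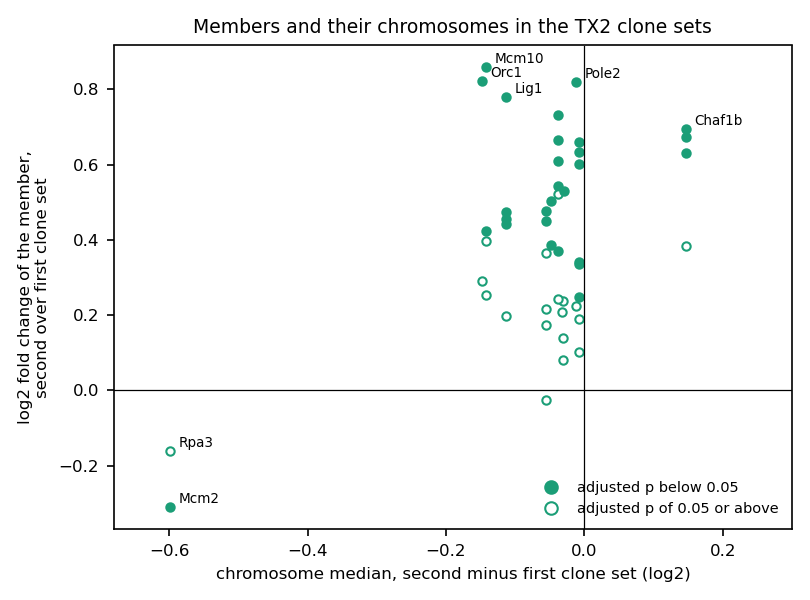
Log2 fold change of each autosomal member, second over first TX2 clone set (vertical axis), against the difference of the median level of all genes on its chromosome (horizontal axis, log2). Filled points have an adjusted p below 0.05; Mcm2 and Rpa3 sit alone at -0.60 on the horizontal axis, below 0 on the vertical one.

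Markers of other cells also parted the clone sets. The 6 B cell markers summed to 53.8 to 152 CPM in the second set and 0.902 to 1.47 CPM in the first, all 6 without overlap, and the 6 neutrophil markers to 43.3 to 108 and 0 to 0.500 CPM, all 6 without overlap, with Camp and Elane at 0 in every library of the first set. The 6 macrophage or monocyte markers summed to 50.1 to 82.0 and 5.86 to 21.8 CPM, 5 of them without overlap, and the 7 erythroid markers to 20.04 to 632 and 0.613 to 11.2 CPM, 6 without overlap. The 6 T cell markers summed to 1257 to 1391 CPM in the second set and 2251 to 2893 CPM in the first. The part of such cells in the difference between the sets was not tested. Between DKO and WT, B cell markers summed to 12.9 to 114 and 4.73 to 6.47 CPM (2 of 6 without overlap), macrophage or monocyte markers to 9.57 to 75.2 and 8.36 to 143 CPM, and neutrophil markers to 3.81 to 172 and 0.0767 to 65.0 CPM (0 of 6 without overlap in both lists). Their part in the higher members of DKO was not tested either. In TX1, 5 of 5 tested neutrophil markers, 3 of 4 macrophage or monocyte markers, 1 of 4 B cell markers and 3 of 6 T cell markers fell against DKO. Neutrophil markers summed to 0 to 1.27 CPM in TX1 and 3.81 to 172 CPM in DKO, and macrophage or monocyte markers to 3.08 to 10.4 and 9.57 to 75.2 CPM. The 7 erythroid markers summed to 0.613 to 632 CPM in TX2 and 0.954 to 5.48 CPM in DKO. In TX2, sums above 11.2 CPM came from the second clone set alone, and 632 CPM from replicate 7. The 4 erythroid markers with enough reads to be tested were called higher in TX2. Of the T cell markers, 3 of 6 fell (1257 to 2893 CPM in TX2 and 3636 to 4970 CPM in DKO). A marker near 0 in 1 group can enter the test only through the other group. The counts of tested neutrophil and erythroid markers therefore do not show how many of each list changed. The part of such cells in the results of both transfers was not tested.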

How the data were processed

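Bulk RNA-seq of 21 libraries was deposited as counts of reads per gene, whole numbers that the authors left unnormalised. Per the submitters' processing notes, fastp 0.21.0, STAR 2.7.5a and DESeq2 were used with builds mm10 and GRCm38, with the role of each not stated there. The unstranded count column was used, since the other columns split reads about equally (median share 0.507). Summary lines, 16.8 to 23.4% of the reads in each file, were left out. Gene symbols came from the GENCODE annotation of GRCm38, which matched 55141 of 55487 IDs.

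The members and the other lists were chosen with earlier results of these data known. Each pair of groups was fitted alone with edgeR 4.0.16 in R 4.3.3 (TMM scaling, filterByExpr, robust quasi-likelihood test, limma 3.58.1), with Benjamini-Hochberg adjustment over all genes tested and a threshold of 0.05. Standard errors are the absolute log2 fold change divided by the square root of F. Levels (CPM) are counts scaled to a common library size with TMM factors over all libraries, computed with Python 3.11.15 and pandas 2.3.3. The test was tried on simulated counts with known changes first. Genes named with a test are, by rule, the 4 called members with the largest rise and the 4 with the largest fall in each comparison, Mcm2, Cdc6, Pcna, Rrm2 and Tk1 in all, and the 2 most changed genes of each other list in DKO against WT and TX1 against DKO; further genes were named after their values were seen. One gene that the rule names is not reported here. The alternatives comprised DESeq2 1.42.0, RLE size factors, all genes unfiltered, 1 fit of all groups, sex as covariate, a replicate block, subsets of libraries and leaving out each library. Replicate numbers in the labels name biological replicates, and p-values measure only the spread between these libraries. Within groups, every library pair differed by more than counting noise (chi-square per gene 6.5 or more), so none is a copy of another; this does not show that they are independent, and TX2 libraries of a clone set share a clone. Chtf8 of the other replication list matched 2 genes and is not used here.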

Additional observations from a re-analysis of the deposited data

Results flagged for a closer look

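Each member, and the sum over members, in each group (196 sets in all) was examined for a library far from the others, and 2 met the criterion. The sets share libraries and are not independent, so this count cannot be weighed against a chance rate of 1 in 20. Mcm2 in WT was lowest in replicate 5 (90.3 CPM), with the next library at 110.4 and the highest at 117 CPM, a gap of 0.744 of the range. Rfc1 in TX1 was lowest in replicate 1 (80.8 CPM), with the next library at 129 and the highest at 136 CPM, a gap of 0.871 of the range. TX1 replicate 1 was the lowest TX1 library for all 48 members.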

How the results depend on the processing

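TX1 against DKO depended on the processing: where 10 members were called, 1 fit of all 4 groups gave 23 (23.8% of all genes called in either direction, against 11.7% higher and 7.97% lower as reported), sex as covariate 6 (18%), the replicate block 0 (0.638%), libraries numbered up to 3 alone 0, no young DKO libraries 0, and leaving out single libraries 1 to 27. TX2 against DKO gave 22 (libraries numbered up to 3) where 43 were called, 32 with TX2 summed per clone set, and 40 to 44 without single libraries. Those fits called 44.3%, 30.2% and 44.7 to 51.1% of all genes in either direction. TX2 against TX1 gave 1 with DESeq2, 1 with 1 fit of all 4 groups and 1 among libraries numbered up to 3, and 0 to 8 without single libraries. The shares of all genes called there were 8.9%, 10.9%, 8.82% and 0 to 9.07%. Without single libraries the counts were 37 to 42 for DKO against WT and 42 to 46 for TX1 against WT. They were 46 for TX2 against WT and 23 to 35 between the clone sets. In the same order, 36.4 to 46.1%, 41.2 to 55.9%, 61.2 to 66% and 32.8 to 47.4% of all genes were called in either direction. The cause was not tested.

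Of the genes named by rule, 3 reversed. Over all alternatives, 8 of 48 members took both signs in TX1 against DKO, 12 in TX2 against TX1, 4 in DKO against WT, 2 in each other pair and 1 between the clone sets, and none of these was called in that comparison. Rrm2 in TX1 against DKO was 0.0039 without TX1 replicate 1 and 0.012 without the young DKO libraries, and Tk1 -0.074 without TX1 replicate 4. Without single libraries Rrm2 spanned -0.81 to 0.0039 and Tk1 -0.074 to 0.67 there. Pcna in TX2 against TX1 was -0.026 without TX1 replicate 1 and spanned -0.026 to 0.31. Deviations of same-numbered libraries from their group means correlated at -0.191 to 0.339. Such correlations cannot show whether the numbers pair libraries, for example by day or litter. With the replicate block, counts were 40 (DKO against WT), 40 (TX2 against DKO), 0 (TX2 against TX1), 42 (TX1 against WT) and 45 (TX2 against WT). In the same order, 42%, 42.8%, 3.49%, 41.1% and 60.7% of all genes were called in either direction. Libraries numbered 4 and over alone could not be run where TX1 enters, with 1 such library. Sort gate and transfer cannot be told apart, and TX2 rests on 2 clones.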
